A study of Mus musculus with 2 samples.

Results

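The genes of blood clotting and of clot removal were examined in the liver of the mouse embryo. The members were 35 genes taken by symbol, without use of their measured levels: the fibrinogen chains, the clotting factors, the anticoagulant proteins, plasminogen with its activators and inhibitors, the plasma glycoproteins Vtn and Hrg, and the enzymes and cargo receptors that prepare clotting factors for secretion. Of these, 34 had an entry among the 43346 genes of the deposited tables. Klkb1, the gene of plasma prekallikrein, had none and is described apart.

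Both libraries were total RNA sequencing of whole liver from B6NCrl mouse embryos of mixed sex at 15.5 days. They are biological replicates of 1 group: replicate 2 was a pool of 62 embryos and replicate 1 a pool of 78 embryos. RNA longer than 200 nt was used, with an input of 10 ng and added spike-in RNAs. There was no treated, mutant or control group, so genes are compared within the tissue, and replicate 2 is compared with replicate 1. Pooling hides differences between embryos and between the sexes. Summed over all entries, spike-ins among them, replicate 2 had 45117192 expected counts and replicate 1 had 34820426. Levels are given in TPM (transcripts per 1000000, a measure corrected for transcript length), rescaled after the spike-ins were left out.

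Clotting is a chain of proteases. Tissue factor on cells outside the vessel lumen binds factor VII and sets off the activation of factor X, which with factor V as its helper turns prothrombin into thrombin, and thrombin cuts fibrinogen into fibrin. Antithrombin, the protein C system and the tissue factor pathway inhibitor hold this chain in check, and plasmin, made from plasminogen, dissolves the fibrin. Most of these proteins are secreted by hepatocytes, and several need a vitamin K-dependent carboxylation of their glutamates before they can bind membranes. Tissue factor, thrombomodulin, factor VIII and the plasminogen activators come largely from vessel walls, connective tissue and other cells.

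Several members are neighbours in the genome, and the stretches upstream of the genes in 2 such groups are shown because those groups differ in how even their levels are. They are RefSeq sequences of assembly GRCm38.p6, 5′ to 3′ on each gene's own strand, and end at the RefSeq start or, for Fga, where the GENCODE gene starts. Capitals mark the letters TTGCNNAA, bound by the C/EBP factors of liver, and GTTAAT, the letters of 1 arm of the site of HNF1, a hepatocyte factor, on either strand. The first 3 belong to the fibrinogen genes on chromosome 3 and the others to the genes of factor VII, factor X and protein Z on chromosome 8.
Fgg: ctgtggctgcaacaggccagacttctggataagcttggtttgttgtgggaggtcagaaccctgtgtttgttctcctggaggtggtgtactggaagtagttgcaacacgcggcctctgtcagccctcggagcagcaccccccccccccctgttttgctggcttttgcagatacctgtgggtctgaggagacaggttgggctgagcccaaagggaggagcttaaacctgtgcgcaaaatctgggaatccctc
Fga: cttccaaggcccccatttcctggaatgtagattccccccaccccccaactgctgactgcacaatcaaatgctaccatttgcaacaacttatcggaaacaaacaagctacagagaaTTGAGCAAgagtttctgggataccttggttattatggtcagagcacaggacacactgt
Fgb: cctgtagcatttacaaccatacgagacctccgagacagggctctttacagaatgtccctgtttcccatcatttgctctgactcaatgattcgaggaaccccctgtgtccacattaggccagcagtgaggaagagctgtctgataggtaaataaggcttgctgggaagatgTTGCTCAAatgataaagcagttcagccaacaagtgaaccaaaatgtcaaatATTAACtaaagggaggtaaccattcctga
F7: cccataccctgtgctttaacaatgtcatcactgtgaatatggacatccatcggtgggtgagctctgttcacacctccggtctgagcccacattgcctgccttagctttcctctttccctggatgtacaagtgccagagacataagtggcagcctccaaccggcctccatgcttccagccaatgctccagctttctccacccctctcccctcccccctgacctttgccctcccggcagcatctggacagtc
F10: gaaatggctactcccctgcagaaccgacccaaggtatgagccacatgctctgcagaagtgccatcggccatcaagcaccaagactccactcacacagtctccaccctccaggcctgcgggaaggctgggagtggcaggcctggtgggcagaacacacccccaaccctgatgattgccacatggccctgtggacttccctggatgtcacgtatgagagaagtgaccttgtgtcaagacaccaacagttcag
Proz: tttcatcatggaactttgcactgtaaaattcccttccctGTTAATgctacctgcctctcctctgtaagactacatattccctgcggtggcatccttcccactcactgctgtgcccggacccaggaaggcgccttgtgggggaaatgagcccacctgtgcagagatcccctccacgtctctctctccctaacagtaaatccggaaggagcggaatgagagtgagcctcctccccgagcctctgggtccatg
In GRCm38 coordinates they span chr3:83007474-83007723 on the + strand for Fgg, chr3:83025903-83026075 on the + strand for Fga and chr3:83049864-83050113 on the - strand for Fgb. The others span chr8:13025784-13026033 for F7, chr8:13037058-13037307 for F10 and chr8:13060658-13060907 for Proz, all on the + strand. Within 250 bases before and 50 after the RefSeq start, Fga and Fgb each held the C/EBP letters once and the HNF1 letters once, and Fgg held neither. The HNF1 letters of Fga lie 43 to 38 bases before the RefSeq start, inside the first exon of the GENCODE gene, so they are not in the stretch shown. In Fgb the HNF1 letters lie 29 to 24 bases and the C/EBP letters 80 to 73 bases before the start. Proz held the HNF1 letters 211 to 206 bases before its start, while the windows of F7 and F10 held neither motif. The form of F10 with the highest level starts downstream of the start used here. Such a match is a description of the letters and says nothing about binding.

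Promoters were found for 27 members, with 29 windows in all, since 2 members had a second one. The letters TTGCNNAA were in 9 of the 29 windows (31.0%), against 10.8% of all 32851 windows of the same length. GTTAAT was in 6 of the 29 (20.7%), against 7.10% of all. The TATA box letters TATAAA were in 5 (17.2%), against 13.6%, and the HNF4 letters CAAAGTCCA were in 0 of the members, against 0.475% of all windows. Both strands were searched. The windows with GTTAAT were those of F2, F13b, Fga, Fgb, Proz and Vtn, whose levels spanned a wide range.

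Nearly the whole pathway was transcribed in the liver at this stage. At 1 TPM or more in both libraries, 32 of the 34 measured members were detected, where 28.4% of all annotated genes were. The 2 members below this level were F3, the gene of tissue factor, and Plau, the gene of urokinase. At 100 TPM or more in both libraries stood 15 members, where 2.29% of all genes did. By their mean over the libraries, 7 members lay at 500 TPM or more, 8 between 100 and 500, 12 between 10 and 100, 5 between 1 and 10, and 2 below 1 TPM. The highest mean, that of Kng1, was 2152 times the lowest, that of F3. Members were taken for their role in a pathway known to be made in liver, and with earlier results of these data known. These shares therefore describe them and are not a test. In bulk tissue, fewer cells of a type and less RNA per cell cannot be told apart.

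Together the members summed to 6883 TPM in replicate 2 and 8300.2 TPM in replicate 1, or 0.688% and 0.830% of the tissue total, a mean of 0.759% ± 0.1002 (SD, n = 2). The sum rested on few genes: the leading 10 members held 85.6% of it in replicate 2 and 86.2% in replicate 1, and the leading 5 held 57.7% and 58.1%. Those 5 were Kng1, Fga, Serpinc1, Fgg and Vtn. The defining markers of hepatocytes, which are Alb, Afp, Apoa1, Ttr, Trf and Ahsg, were all abundant, and summed to 33569 TPM in replicate 2 and to 43216 in replicate 1.

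**Figure D1:**
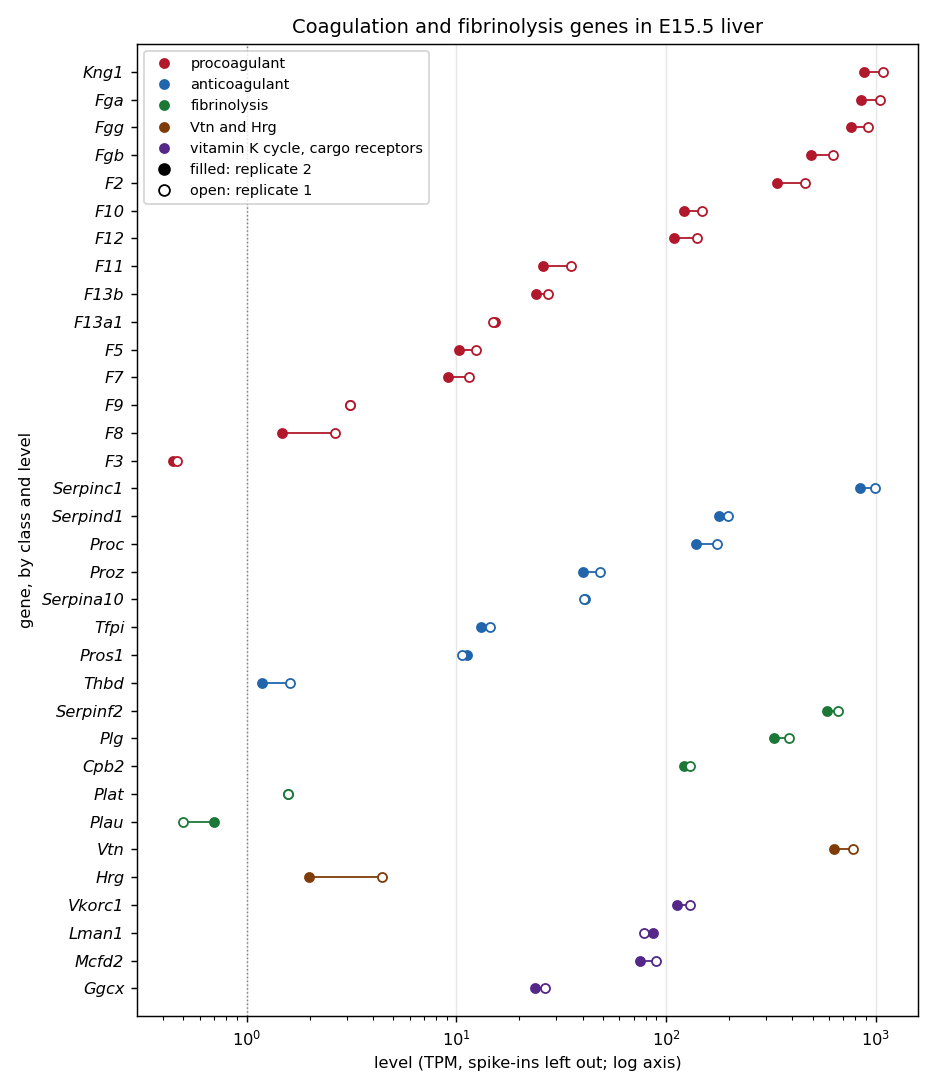
Level of each measured member in TPM (log axis), by class and then by mean level, with filled points for replicate 2 and open points for replicate 1. The 2 points of a gene mostly lie close together beside the spread between genes, and F3 and Plau lie left of the dotted line at 1 TPM.

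The 3 fibrinogen chains, which the liver assembles into 1 protein with equal numbers of each chain, were among the highest members and close in level. Fga had 852 TPM in replicate 2 and 1048 TPM in replicate 1. Fgg had 765 and 915 TPM, and Fgb had 493 and 626 TPM, in the same order of libraries. Their sum was 30.7% of the member total in replicate 2 and 31.2% in replicate 1, or 30.9% ± 0.373 (SD, n = 2).

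Fgb was the lowest chain by TPM in both libraries, with Fga at 1.73 times its level in replicate 2 and 1.67 times in replicate 1. That order depends on the transcript lengths behind the TPM, since the Fgb transcript has 3810 nt and the mean lengths of the other 2 chains are shorter. By counts per kb of coding sequence and per 1000000 counts of the library, Fgb was the highest of all members, with 1204 in replicate 2 and 1472 in replicate 1. On that scale Fgg had 877 and 1010.3, and Fga 723 and 858. By expected counts as such, Fga had 75652 and Fgb 76822 in replicate 2, and 69126 and 72323 in replicate 1. The 3 chains therefore stayed within the same order of magnitude on each of the 3 scales, but which was highest did not hold across them.

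The fibrinogen genes lie side by side on chromosome 3. Fgg occupies chr3:83007724-83015049, Fga chr3:83026076-83033627 and Fgb chr3:83040141-83049863. The gaps are 11026 nt between Fgg and Fga and 6513 nt between Fga and Fgb, with no other protein-coding gene in either, and Fgb runs in the opposite direction. The highest of the 3 means was 1.70 times the lowest.

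The vitamin K-dependent clotting proteases were uneven. F2, the gene of prothrombin, had 338 TPM in replicate 2 and 462 TPM in replicate 1. F10, the gene of factor X, had 122 TPM in replicate 2 and 148 TPM in replicate 1. F7, which encodes the protease that tissue factor binds, had 9.09 TPM in replicate 2 and 11.5 TPM in replicate 1. F9, on the X chromosome, encodes the factor missing in haemophilia B and was the lowest of the proteases. It had 346 expected counts in replicate 2 and 256 in replicate 1, which are 3.13 and 3.12 TPM. F2 exceeded F9 by 128 times in the mean, so levels within this family differed far more than the libraries did. F10 exceeded F9 by 39.1 times in replicate 2 and 47.6 times in replicate 1.

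F7, F10 and Proz form a row on chromosome 8 with the same orientation, and their levels were not alike. F7 lies at chr8:13026034-13035809, F10 at chr8:13037308-13056676 and Proz, the gene of protein Z, at chr8:13060914-13076026. The gap is 1498 nt between F7 and F10 and 4237 nt between F10 and Proz. F10 stood at 13.4 times F7 in replicate 2 and 13.0 times in replicate 1, a ratio that moved little between the libraries. Proz had 40.4 TPM in replicate 2 and 48.5 TPM in replicate 1, and F10 exceeded it by 3.03 and 3.06 times.

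**Figure D2:**
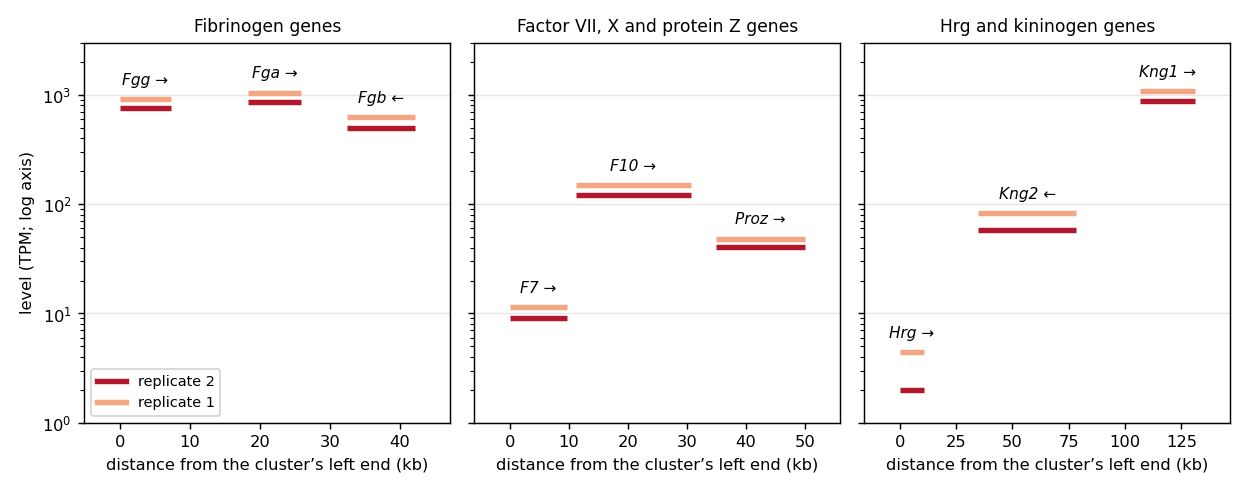
Level in TPM (log axis) of neighbouring genes against distance in kb from the left end of each row, with dark bars for replicate 2, pale bars for replicate 1 and arrows for the direction of transcription. The fibrinogen genes lie within a factor of 1.70 by mean level, while F10 lies above F7 and Kng1 far above Hrg.

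Of the initiator and the cofactors, none reached 100 TPM. F3 had 33 counts (0.444 TPM) in replicate 2 and 26 counts (0.466 TPM) in replicate 1, close to the detection limit. Its inhibitor Tfpi had 13.1 TPM in replicate 2 and 14.6 TPM in replicate 1, so F3 was at 0.0338 and 0.0320 of the Tfpi level. F5, the gene of factor V, had 10.3 TPM in replicate 2 and 12.4 TPM in replicate 1. F8, the gene of factor VIII, which is made by endothelial cells, had 272 counts in each library. These are 1.48 TPM in replicate 2 and 2.65 TPM in replicate 1. Equal counts are a smaller part of replicate 2, whose library total was larger. In addition, the reads of F8 were assigned to transcripts with a mean length of 4502 nt in replicate 2 and 3390 nt in replicate 1. By counts per library total the log2 ratio was -0.38, against -0.85 by TPM. By TPM the short form F8-203, of 676 nt, held 46.5% of the gene in replicate 2 and 61.3% in replicate 1. F8-202, of 7295 nt, held 43.0% and 32.4%. The share of F8-203 rests on 16.5 expected counts in replicate 2 and 29.3 in replicate 1, or 6.06% and 10.8% of the gene's counts. F8-202 held 70.2% and 70.7% of the counts.

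The contact system, in which factor XII, prekallikrein and factor XI are activated on negatively charged surfaces with kininogen as carrier, was led by Kng1. Kng1, the gene of the carrier and the source of bradykinin, had 876 TPM in replicate 2 and 1082 TPM in replicate 1 and was the highest member in both. F12, the gene of factor XII, had 109 TPM in replicate 2 and 141 TPM in replicate 1. F11 had 25.9 TPM in replicate 2 and 35.1 TPM in replicate 1. Kng1 exceeded F12 by 8.02 times in replicate 2 and 7.68 times in replicate 1, and F11 by 33.8 and 30.9 times. Kng2, a second kininogen gene of the mouse that lies near Kng1 on chromosome 16, had 58.1 TPM in replicate 2 and 82.2 TPM in replicate 1, and Kng1 exceeded it by 15.1 and 13.2 times. Reads shared between these similar genes were split by the authors' estimate, so the ratio depends on that estimate. The deposited posterior spread was 19.6 counts in replicate 2 and 20.5 in replicate 1, for Kng1 and for Kng2 alike. This is small beside the Kng2 counts of 3660 in replicate 2 and 3837.5 in replicate 1.

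Klkb1 could not be given a level. Its only transcript in the tables is listed under the neighbouring gene Cyp4v3, with 5.28 counts (0.0516 TPM) in replicate 2 and 5.24 counts (0.0621 TPM) in replicate 1. Gm45753, an annotated gene that overlaps the same place on the same strand, held 2914 counts (29.0 TPM) in replicate 2 and 2525 counts (33.8 TPM) in replicate 1. Reads from these overlapping annotations cannot be told apart, so neither value is a measure of prekallikrein. Klkb1 lies 4657 nt from F11, to which it is related by descent.

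Factor XIII crosslinks fibrin and is built of an enzyme chain and a carrier chain from different genes. F13a1, the enzyme chain, which is known from megakaryocytes and macrophages, had 15.2 TPM in replicate 2 and 14.9 TPM in replicate 1. F13b, the carrier chain, had 24.0 TPM in replicate 2 and 27.3 TPM in replicate 1. The F13a1 to F13b ratio was 0.635 in replicate 2 and 0.547 in replicate 1. Markers of megakaryocytes and platelets (Pf4, Ppbp, Itga2b, Gp9, Gp1bb and Gp6) summed to 463 TPM in replicate 2 and 450.5 TPM in replicate 1, and markers of macrophages to 274 and 328 TPM. Each of these markers reached 1 TPM in both libraries, and their part in the F13a1 level was not tested.

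Anticoagulant genes were led by a serpin. Serpinc1, the gene of antithrombin, had 846 TPM in replicate 2 and 995 TPM in replicate 1. Serpind1, the gene of heparin cofactor II, had 179 TPM in replicate 2 and 198 TPM in replicate 1. Serpina10, whose product blocks factor Xa together with protein Z, had 41.2 TPM in replicate 2 and 40.6 TPM in replicate 1. Its partner Proz stood at 0.981 of Serpina10 in replicate 2 and 1.20 of it in replicate 1, so which of the pair was higher did not hold between the libraries.

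Proc, the gene of protein C, which cuts factors V and VIII, had 139 TPM in replicate 2 and 175 TPM in replicate 1. Pros1, the gene of its cofactor protein S, had 11.2 TPM in replicate 2 and 10.6 TPM in replicate 1. Proc exceeded Pros1 by 12.4 times in replicate 2 and 16.5 times in replicate 1. Thbd, the gene of thrombomodulin, the endothelial receptor that turns thrombin towards protein C, had 181 counts in each library, which are 1.19 TPM in replicate 2 and 1.61 TPM in replicate 1. Endothelial markers (Pecam1, Cdh5, Kdr, Tek, Stab2 and Lyve1) summed to 63.7 TPM in replicate 2 and 69.8 TPM in replicate 1, with all 6 at 1 TPM or more, and their part in the levels of Thbd, Tfpi and F8 was not tested.

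The level of Serpinc1 rests on how its reads were assigned. Serpinc1-204, a form of 742 nt annotated as subject to nonsense-mediated decay, held 48.7% of the gene in replicate 2 and 49.4% in replicate 1. Serpinc1-205, of 1044 nt and 286 codons, held 49.2% and 48.6%. The form with the longest coding sequence, Serpinc1-201 with 465 codons, held the small remainder with other forms. The mean transcript length behind the TPM was 963 nt. On the scale of counts per coding length used above, Serpinc1 had 498 in replicate 2 and 563 in replicate 1, rank 7 of the members, against rank 3 by TPM. In addition, 34.4% of its exon bases overlap Zbtb37 on the opposite strand, which had 1.19 TPM in replicate 2 and 1.87 TPM in replicate 1. Whether counting used the strand is not given in the sources used here.

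F2 and Serpinc1 encode an enzyme and its main inhibitor. F2 stood at 0.399 of Serpinc1 by TPM in replicate 2 and 0.464 in replicate 1. By expected counts the ratio was 0.876 in replicate 2 and 1.02 in replicate 1, so F2 was below Serpinc1 in replicate 2 on both scales, and in replicate 1 the pair was about equal by counts. By counts per coding length F2 had 328 in replicate 2 and 432 in replicate 1, below Serpinc1 in both libraries.

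Plasminogen was abundant and its activators were not. Plg had 328 TPM in replicate 2 and 386 TPM in replicate 1. Plat, the gene of tissue plasminogen activator, had 160 counts (1.57 TPM) in replicate 2 and 119 counts (1.57 TPM) in replicate 1. Plau had 66 counts (0.702 TPM) in replicate 2 and 35 counts (0.497 TPM) in replicate 1. Plg exceeded Plat by 209 times in replicate 2 and 245 times in replicate 1. Of the genes whose products slow fibrinolysis, 1 stood above Plg and the other below it. Serpinf2, the gene of alpha-2-antiplasmin, had 585 TPM in replicate 2 and 662 TPM in replicate 1, and Plg stood at 0.561 and 0.583 of it. Cpb2, whose product trims the plasminogen binding sites from fibrin, had 122 TPM in replicate 2 and 129.8 TPM in replicate 1, and Plg exceeded it by 2.68 and 2.97 times.

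The adaptor glycoproteins differed widely. Vtn, the gene of vitronectin, a plasma protein that binds cell receptors, had 629.8 TPM in replicate 2 and 779 TPM in replicate 1. Hrg, the gene of histidine-rich glycoprotein, which binds heparin and plasminogen, had 137 counts (1.99 TPM) in replicate 2 and 224 counts (4.40 TPM) in replicate 1. The log2 ratio of Hrg was -1.14 without a pseudocount, with an exact 95% counting interval of -1.46 to -0.83. Hrg lies 96208 nt from Kng1, with Kng2 between them, and Kng1 exceeded it by 440 times in replicate 2 and 246 times in replicate 1.

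The processing genes were all expressed. Ggcx, the carboxylase that modifies the vitamin K-dependent proteins, had 23.7 TPM in replicate 2 and 26.4 TPM in replicate 1. Vkorc1, which recycles the vitamin and is the target of warfarin, had 113 TPM in replicate 2 and 131 TPM in replicate 1, or 4.77 and 4.94 times Ggcx. The 7 client genes F2, F7, F9, F10, Proc, Pros1 and Proz summed to 662 TPM in replicate 2 and 859 TPM in replicate 1, which are 28.0 and 32.5 times Ggcx. Vkorc1 shares 47.7% of its exon bases with Gm21974 on the same strand, a gene listed at 0 in both libraries.

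Lman1 and Mcfd2 encode the receptor complex that carries factors V and VIII out of the endoplasmic reticulum. Lman1 had 86.9 TPM in replicate 2 and 78.5 TPM in replicate 1. Mcfd2 had 75.1 TPM in replicate 2 and 89.4 TPM in replicate 1, so by TPM the order of the pair turned between the libraries. By expected counts it did not turn, with Lman1 at 1.74 times Mcfd2 in replicate 2 and 1.51 times in replicate 1. The TPM of Lman1 include its short form Lman1-205, annotated as a processed transcript, with 25.4 TPM in replicate 2 and 13.9 TPM in replicate 1. Lman1 exceeded its cargo F5 by 8.42 times in replicate 2 and 6.33 times in replicate 1.

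By summed TPM, procoagulant genes stood above both the anticoagulant and the fibrinolytic genes. The 15 measured procoagulant members summed to 3645 TPM in replicate 2 and 4529 TPM in replicate 1, the 8 anticoagulant members to 1271 and 1483 TPM, and the 5 fibrinolytic members to 1037 and 1179 TPM. Most of the fibrinolytic sum came from Serpinf2 and Cpb2, whose products slow clot removal, with 707 TPM in replicate 2 and 791 TPM in replicate 1, while plasminogen and its activators summed to 330.2 and 388 TPM. The log2 ratio of procoagulant to anticoagulant sums was 1.57 ± 0.0638 (SD, n = 2) and that of procoagulant to fibrinolytic sums was 1.88 ± 0.0905. Both differences were larger than the spread between the libraries. They belong to a few genes, since by the median member the direction turned: the log2 ratio was -0.50 against the anticoagulant genes and -2.06 against the fibrinolytic genes. The median procoagulant member had 25.9 TPM in replicate 2 and 35.1 TPM in replicate 1, the median anticoagulant member 40.8 and 44.5 TPM, and the median fibrinolytic member, which was Cpb2, 122 and 129.8 TPM. Among plasminogen and its activators alone the median member was Plat, at 1.57 TPM in each library, below the procoagulant median, so the turn against the fibrinolytic genes rests on counting the inhibitors among them. Without the inhibitors the log2 ratio of the sums was 3.50. Without the fibrinogen chains the log2 ratios of the sums were 0.33 and 0.64. The procoagulant sum then was 1535 TPM in replicate 2 and 1940 TPM in replicate 1. Kng1 alone held 876 and 1082 TPM of it. What remained without Kng1 lay below both the anticoagulant and the fibrinolytic sums in each library. The direction of these ratios therefore rests on 1 gene. The ratio to anticoagulant genes also depended on Serpinc1, without which it was 3.16.

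Between the libraries, the members differed little in size but mostly in 1 direction. Of the 27 members at 5 TPM or more in either library, 0 differed by more than 2-fold in log2(TPM + 1), where 0.672% of 8781 genes did. With 1 library on each side no test was possible. Lower in replicate 2 were 23 members and higher were 4, where 60.8% of all genes were lower. The median log2 ratio, replicate 2 over replicate 1, was -0.24 for the members and -0.044 for all genes. The range was -0.45 for F2 to 0.14 for Lman1. F11 had -0.42, F12 -0.36, Fgb -0.34 and Proc -0.34, and the members above 0 were Lman1, Pros1, F13a1 and Serpina10.

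The exact 95% counting interval of the ratio lay wholly below 0 for 23 members and above 0 for 1, and crossed 0 for 3. These intervals cover counting error only, and no share over all genes is set beside them, so these numbers describe the members alone. Over 16042 genes with at least 20 counts, the chi-square per degree of freedom was 19.6, more than sampling noise gives. By counts per library total 22 members were lower and 5 higher in replicate 2. Tfpi, whose interval ended at -0.0019, then had a log2 ratio of 0.04. Lman1 was the member with its interval above 0, but by counts per library total its log2 ratio was 0.01. Its short form Lman1-205, annotated as a processed transcript, held 29.2% of the gene in replicate 2 and 17.7% in replicate 1. Scaling by the spike-ins changed the split to 17 members lower and 10 higher, with a member median of -0.051 against 0.15 for all genes. The share of all genes that were lower was not counted with this scaling or by counts per library total. The spike-in scaling moves every gene by the same factor. The distance between the members and all genes, -0.20 with and without it, is therefore nearly fixed by construction.

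Hepatocyte markers moved with the members: all 6 were lower in replicate 2, with a median log2 ratio of -0.33. Macrophage markers were lower in 5 of 6, with a median of -0.26, and endothelial markers in 6 of 6, with a median of -0.14. Bile duct markers summed to 13.4 TPM in replicate 2 and 26.7 TPM in replicate 1, pancreas markers to 14.6 and 53.4 TPM, and heart and skeletal muscle markers to 322 and 201 TPM. Among the pancreas markers Pnlip was at 0 in both libraries. Stellate cell markers summed to 251 and 258 TPM, erythroid markers to 3492 and 3795 TPM, and mesothelial markers to 8.20 and 8.04 TPM. The part of these cell types in the difference between the libraries was not tested.

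**Figure D3:**
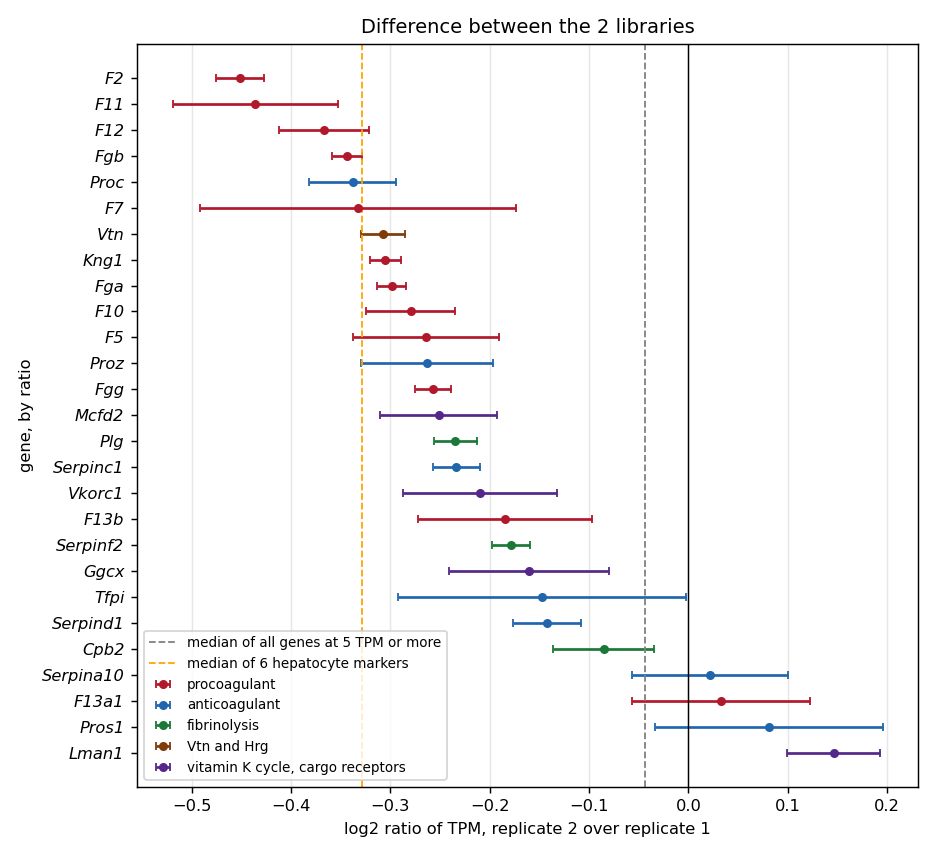
Log2 ratio of TPM, replicate 2 over replicate 1, for the 27 members at 5 TPM or more in either library, with exact 95% counting intervals and colours for class. Of the members, 23 lie left of 0, and most lie between the medians of all genes (grey dashes, -0.044) and of the hepatocyte markers (orange dashes, -0.33).

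Transcript choice was nearly the same in both libraries, for the members as for genes in general. Among 19 members that have 2 or more annotated transcripts and reach 5 TPM in each library, the leading transcript was the same in 18, where 93.2% of 6121 genes did. The exception was Serpinc1, whose 2 leading forms were nearly equal. In 6 of the 19 members the leading form held 90% or more in both libraries. The leading form was annotated as protein-coding in 17, as subject to nonsense-mediated decay in 1, and was not in the annotation used for names in 1. A further 14 members had 1 annotated transcript.

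The fibrinogen alpha and gamma genes each use alternative ends that give longer chains. Fga-201, with 557 codons, held 73.8% of Fga in replicate 2 and 73.3% in replicate 1, and Fga-202, with 789 codons, held 26.2% and 26.7%. Fgg-201, with 436 codons, held 85.4% and 83.3%, and Fgg-202, with 443 codons, held 14.6% and 16.7%. Both genes thus kept a shorter main form and a longer minor form in each library, with shares within a few percentage points.

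Kininogen is made in a long form that carries the clotting cofactor region and in shorter forms. Which of the shorter forms keep part of that region was not examined. Kng1-202, with 432 codons, held 68.6% of the gene in replicate 2 and 67.1% in replicate 1. Kng1-203, with 480 codons, held 21.4% and 21.8%. Kng1-201, the longest with 661 codons, held 9.85% and 10.9%. The highest member by TPM was therefore mostly in forms shorter than the longest one.

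Several other members were split between forms. F10-205, with 319 codons, held 65.7% of F10 in replicate 2 and 62.0% in replicate 1, and F10-202, with 481 codons, held 23.4% and 29.5%. Tfpi-207 (300 codons) held 45.4% and 41.9% and Tfpi-201 (306 codons) 37.6% and 34.7%. Serpina10-202 (394 codons) held 78.5% and 75.3% and Serpina10-201 (448 codons) 21.5% and 24.7%. Shorter forms thus led in F10 and Serpina10 as well, in both libraries.

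The remaining split members included forms with the same number of codons and forms annotated as retained introns. Serpinf2-201 held 62.3% in replicate 2 and 68.8% in replicate 1, and Serpinf2-202 held 30.7% and 24.4%, both with 491 codons. Vtn-201, with 478 codons, held 69.8% and 72.5%, and Vtn-204, annotated as a retained intron, held 29.6% and 27.1%. In Serpind1 a transcript without an entry in the naming annotation, ENSMUST00000161034, held 50.7% and 53.1%, and Serpind1-201 held 49.3% and 46.9%. The coding length of ENSMUST00000161034 is therefore not known here. Lman1-201 held 50.3% and 62.3%, and Lman1-202 held 20.3% and 19.8%. Vkorc1-201, with 161 codons, held 88.7% and 94.6%, and the shorter Vkorc1-202, with 93 codons, held 11.3% and 5.42%. The leading shares of Lman1, Serpinf2 and Vkorc1 were thus lower in replicate 2.

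**Figure D4:**
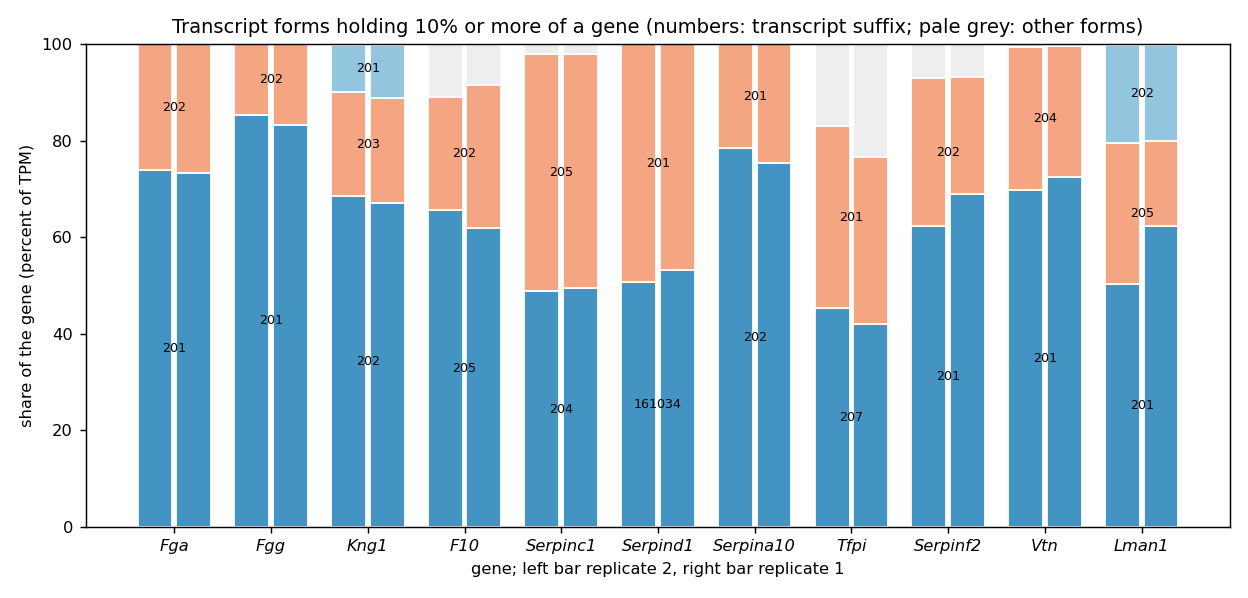
Share of each gene's TPM held by transcript forms with 10% or more in either library, in percent, with replicate 2 as the left bar and replicate 1 as the right bar of each gene. Shares are close between the libraries for Fga, Fgg and Kng1, Serpinc1 is split nearly evenly between its 2 leading forms, and Lman1 shows a wider gap than the other genes drawn, all at 5 TPM or more in both libraries.

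Among 31 further genes of the pathway, all measured, 28 reached 1 TPM in each library and 2 reached 100 TPM. Of the 22 at 5 TPM or more in either library, 0 differed by more than 2-fold in log2(TPM + 1), where 0.672% of all genes did. Lower in replicate 2 were 17 and higher 5, where 60.8% of all genes were lower. Their median log2 ratio was -0.17. The highest was Pzp, a broad protease inhibitor of plasma, with 212 TPM in replicate 2 and 300.3 TPM in replicate 1. Anxa2, a cell surface receptor of plasminogen, had 132 and 165 TPM, and Hgfac, a protease related to factor XII, had 90.1 and 132 TPM. Serping1, the inhibitor of the contact and complement proteases, had 77.9 and 94.2 TPM. Fgl1, a fibrinogen-like gene, differed most between the libraries, with 5.17 TPM in replicate 2 and 10.8 TPM in replicate 1, a log2 ratio of -0.94 with the pseudocount and -1.06, past 2-fold, without it.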

How the data were processed

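Total RNA sequencing tables of genes and transcripts were used for 2 libraries of 1 group. The deposited expected counts estimate how many reads fell on each feature and were not scaled by the authors. The deposited TPM were corrected by the authors for length and depth with spike-ins in the total. Both used mm10 and annotation M4, per the companion descriptions. Which aligner and quantifier made them is not given in the sources used here.

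Beside 43346 genes there were 97 spike-ins and 26248 entries named by a number, which were left out before TPM was rescaled. GENCODE M21, also on GRCm38, gave names to 42462 genes, as well as types and positions. The members were taken by symbol without use of their measured levels. They and the gene lists were nonetheless chosen with earlier results of these data known. All members are named, and of further pathway genes the rule took the 4 highest, the lowest and the one that differed most, of which 1 is not reported here. Transcripts named hold 10% or more of a gene, with others given in a few cases. Counts assigned to genes were 44200838 in replicate 2 and 34039426 in replicate 1.

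Values are means ± SD over the libraries. The libraries were set against each other as the log2 ratio, replicate 2 over replicate 1, with a pseudocount of 1 TPM, at 5 TPM or more in either library, with exact Clopper-Pearson 95% intervals of the count ratio, scaled by TPM. They cover counting error only. No p-value is given. The interval and the 2-fold rule were tested on simulated counts that held sampling noise only. That test cannot show how they behave on libraries that differ by more than sampling noise, as these do. Over 16042 genes with at least 20 counts the chi-square per degree of freedom between the libraries was 19.6, more than sampling noise gives. Scaling by TMM (edgeR 4.0.16), by median of ratios (DESeq2 1.42.0) and by spike-ins, expected counts, other limits and other memberships of the classes were tried, and counts per coding length, counts per library total and the removal of Serpinc1 were chosen after seeing the data. Tools were R 4.3.3 and Python 3.11.15 with matplotlib 3.10.9, SciPy 1.17.1, pandas 2.3.3 and NumPy 2.4.6.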

Additional observations from a re-analysis of the deposited data

How the results depend on the processing

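The log2 ratio of procoagulant to anticoagulant genes, 1.57 in the sums of TPM, was 2.41 by expected counts, 0.33 without the fibrinogen chains, 2.76 without the highest gene of each class and 0.97 with Vtn and Hrg counted as anticoagulant. It was -0.50 by medians over members. With alternatives chosen after seeing the data it was 2.08 by counts per coding length and 3.16 without Serpinc1. The ratio to fibrinolytic genes, 1.88, was 0.64 without the fibrinogen chains, 3.50 without the inhibitors of fibrinolysis and -2.06 by medians. The fibrinogen share, 30.9%, was 38.3% by expected counts and 37.2% by counts per coding length. The median log2 ratio between the libraries, -0.24, was -0.051 with spike-in scaling, which by its construction moved every gene by 0.20, beside 0.07 for both TMM and median-of-ratios scaling. The 0 members past 2-fold stayed 0 under these scalings, with a pseudocount of 0.1 and with no filter. Neither of the last 2 settings could count Hrg, whose log2 ratio was -1.14 without a pseudocount. The 5 TPM filter left Hrg out of the first, and in the second the pseudocount of 1 TPM brought it to -0.85. Leaving out a library leaves no comparison between libraries, so that was run only for values within a library. Genes under 100 counts in either library (F3 and Plau) are limited by depth.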
